A study of Mus musculus with 4 samples.

Results

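The uncoupling protein genes Ucp1, Ucp2 and Ucp3 were followed in ATAC-seq peak lists of im-scWAT cells, 3 genes of the 37310 in the annotation. Peaks of the 4 lists were taken when their summit lay within 50 kb of any annotated transcription start of the gene, which gave 49 of 239709 peaks. Peaks that shared at least 1 bp were joined across lists, and the 49 peaks fell into 16 of the 100904 sites of the series, 7 near Ucp1 and 9 near Ucp2 and Ucp3. ATAC-seq reports accessible chromatin as the places where the Tn5 transposase could insert adapters.

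The im-scWAT cells were stromal vascular cells of subcutaneous white fat from 5-week-old mice, immortalised with a retrovirus for the SV40 large T antigen. WT cells came from Jmjd1a +/+ mice and HY cells from Jmjd1a HY/HY mice, whose JMJD1A, a histone H3 lysine 9 demethylase, has a catalytic histidine replaced by tyrosine and lacks enzymatic activity. D0 is before differentiation. D8 is after 2 days in indomethacin, dexamethasone, 3-isobutyl-1-methylxanthine, rosiglitazone, insulin and T3, then 6 days in insulin, T3 and rosiglitazone, a treatment given to both genotypes to form beige adipocytes. Each of WT D0, WT D8, HY D0 and HY D8 was 1 library, so no replicate spread exists and each difference compares libraries. Genotype cannot be told apart from culture or library, and fewer cells with an open site cannot be told apart from less opening per cell. All intervals cover counting error only.

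UCP1 sits in the inner mitochondrial membrane of brown and beige adipocytes, where it lets protons back into the matrix so that respiration yields heat in place of ATP. Its gene is kept silent in most cells and is switched on through upstream enhancers bound by nuclear receptors and by factors that answer cyclic AMP. UCP2, found in many tissues, and UCP3, found mainly in skeletal muscle and brown fat, are close relatives that are not known for the same heat output.

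On the mm9 build all 3 genes lie on the plus strand. Ucp1 (ENSMUSG00000031710.3) spans chr8:85814247-85822355 and has 1 annotated start. Ucp3 (ENSMUSG00000032942.8) spans chr7:107621499-107634941 with 4 starts, and Ucp2 (ENSMUSG00000033685.5) spans chr7:107641846-107650529 with 10 starts. The first coding Ucp2 start is 20.3 kb downstream of that of Ucp3, so both genes share most of their peaks and were treated as 1 locus. Sites are named by the distance of their strongest summit, in kb, from the first coding start of the named gene.

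At Ucp1, the sequences below are those on which the day and genotype comparisons turn, all on the plus strand of mm9. The -2.5 kb site was a peak in WT D8 alone and is given over its whole length, chr8:85811667-85811832. Its capitals mark the short cores GGTCA, which nuclear receptors bind, and CGTCA, found in cyclic AMP response elements, on either strand.
Ucp1 -2.5 kb: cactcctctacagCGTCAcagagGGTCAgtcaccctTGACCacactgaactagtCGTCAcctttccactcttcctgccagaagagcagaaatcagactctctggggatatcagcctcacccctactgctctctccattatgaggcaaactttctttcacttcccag
A ChIP-qPCR amplicon upstream of Ucp1, placed here by its primers, is chr8:85809547-85809650, centred 4.65 kb before the start, and its capitals mark the primers.
Ucp1 amplicon: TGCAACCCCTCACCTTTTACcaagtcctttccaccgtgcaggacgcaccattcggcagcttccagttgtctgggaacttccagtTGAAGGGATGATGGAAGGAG
The amplicon lies inside the -4.9 kb site, and the 150 bases around the HY D8 summit of that site, chr8:85809318-85809467, hold no motif searched here.
Ucp1 -4.9 kb: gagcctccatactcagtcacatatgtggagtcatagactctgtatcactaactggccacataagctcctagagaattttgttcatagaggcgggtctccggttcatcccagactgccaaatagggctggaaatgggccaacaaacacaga
The 150 bases at the +19.7 kb site, a D8 peak of both genotypes, are chr8:85833893-85834042, with an AP-1 match (TGANTCA) in capitals.
Ucp1 +19.7 kb: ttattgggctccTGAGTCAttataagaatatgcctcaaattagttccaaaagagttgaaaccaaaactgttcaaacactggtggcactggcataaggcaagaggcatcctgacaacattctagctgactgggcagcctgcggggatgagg

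The promoters are shown because neither Ucp1 nor Ucp3 had a peak there in any library. Each is the 200 bases before the first coding start, at chr8:85814047-85814246 for Ucp1, chr7:107641646-107641845 for Ucp2 and chr7:107621300-107621499 for Ucp3. Capitals mark matches to the motifs defined further on and to the cores GGTCA and CGTCA.
Ucp1 promoter: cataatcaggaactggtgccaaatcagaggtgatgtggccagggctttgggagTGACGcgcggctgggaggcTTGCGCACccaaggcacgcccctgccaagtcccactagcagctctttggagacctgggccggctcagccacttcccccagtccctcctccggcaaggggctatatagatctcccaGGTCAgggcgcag
Ucp2 promoter: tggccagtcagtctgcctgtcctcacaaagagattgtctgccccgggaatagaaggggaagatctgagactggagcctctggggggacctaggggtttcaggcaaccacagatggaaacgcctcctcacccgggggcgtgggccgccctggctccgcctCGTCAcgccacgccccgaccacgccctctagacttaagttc
Ucp3 promoter: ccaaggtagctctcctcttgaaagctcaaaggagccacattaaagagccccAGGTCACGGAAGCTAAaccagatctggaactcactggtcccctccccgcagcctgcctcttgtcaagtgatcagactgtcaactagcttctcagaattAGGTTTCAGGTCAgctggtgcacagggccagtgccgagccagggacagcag

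To ask whether the starts themselves were open, peaks with a summit within 1000 bp of a start were counted as promoter peaks. Ucp1 and Ucp3 had 0 in each of the 4 libraries, and Ucp2 had at least 1 in all 4. Of 22238 protein-coding genes, 53.4% had a promoter peak at D8 in WT and 54.8% in HY (58.5% and 59.5% at D0). A missing peak means that the pileup was not past the caller's threshold, not that the promoter was closed. The sequence windows from 250 bases before to 50 after the start differed in composition: the Ucp1 window had 64.7% GC and 15 CpG, the Ucp2 window 64.0% GC and 20 CpG, and the Ucp3 window 55.0% GC and 5 CpG, against medians of 55.3% and 12 over 22220 promoters. The Ucp1 promoter thus had no called peak although its CpG count was above that of 55.8% of promoters.

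The level of a site is given as its pileup, which counts the extended tags that overlap at the summit, and also divided by the genome-wide background rate of its library, which stood for relative depth because read totals are unknown. That rate was lower at D8, 0.659 at D0 and 0.531 at D8 in WT and 0.708 and 0.494 in HY. The lists held 71523, 41228, 77994 and 48964 peaks in the same order. Despite the shorter D8 lists, peaks near the uncoupling protein genes went from 9 at D0 to 15 at D8 in WT and from 10 to 15 in HY. At Ucp1 the counts were 3 at D0 and 9 at D8 in WT, and 3 and 7 in HY. When a -log10 q of at least 5 was required, WT D8 and HY D8 each had 6. For Ucp2 the counts were 6 and 6 in WT and 7 and 8 in HY, and for Ucp3 5 and 5 in WT and 6 and 7 in HY, with shared peaks counted for both genes. Together Ucp2 and Ucp3 had 6 and 6 peaks in WT and 7 and 8 in HY, but when each list was shortened to the length of the shortest by -log10 q they had 3 and 6 in WT and 2 and 7 in HY, while the Ucp1 counts did not move.

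**Figure D1:**
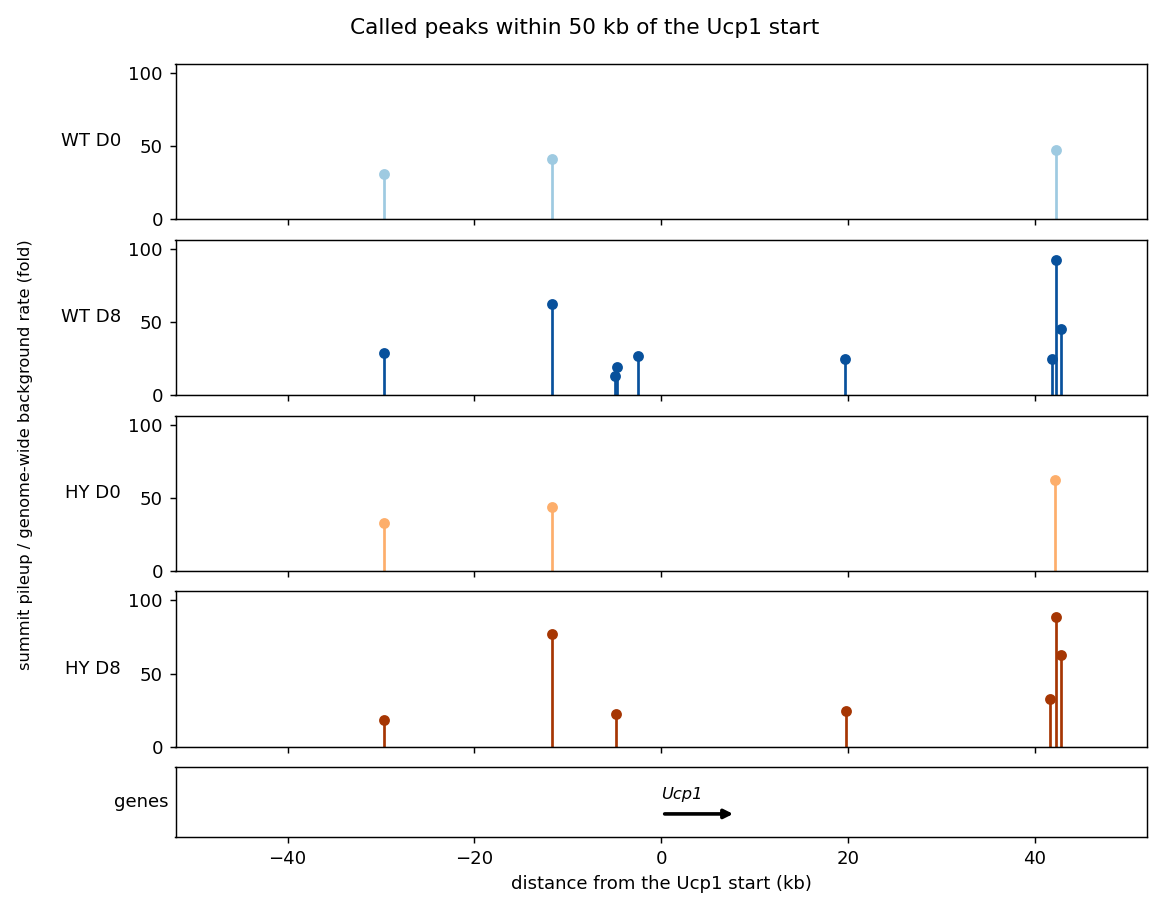
Called peaks around Ucp1, 1 panel per library, against the distance of the summit from the Ucp1 start in kb; the height is the summit pileup divided by the genome-wide background rate of the library, and the arrow is the gene. The D0 panels hold 3 peaks each, D8 adds peaks on both sides of the gene, and the peak 2.5 kb upstream is drawn in WT D8 alone.

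Of the 7 Ucp1 sites, 3 had a peak in all 4 libraries, 3 in both D8 libraries alone and 1 in WT D8 alone. The -11.7 kb site (chr8:85802047-85802792, intergenic) was the strongest of those upstream of the gene. Its pileup was 27 at D0 and 33 at D8 in WT and 31 and 38 in HY, or 41.0, 62.2, 43.8 and 76.9 times the background rate. The D8 libraries were higher in both genotypes, with a depth-scaled D8 over D0 ratio of 1.52 in WT (95% interval 0.885 to 2.62) and 1.76 in HY (1.06 to 2.92). The HY over WT ratio was 1.07 at D0 (0.617 to 1.86) and 1.24 at D8 (0.755 to 2.04), so the genotypes were not separated beyond counting error. The 4 summits lay within 62 bp of each other. The local background around this site also went from 1.33 to 2.83 times the genome-wide rate in WT and from 1.55 to 2.85 in HY, and by the deposited fold over local background D8 over D0 came to 0.909 (WT) and 1.06 (HY).

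The other upstream site open at both days, at -29.7 kb (chr8:85784404-85784898), lies in an intron of Tbc1d9, 1420 bp from a start of that gene. Its pileup was 20 at D0 and 15 at D8 in WT and 23 and 9 in HY, or 30.4, 28.3, 32.5 and 18.2 times the background rate in that order. It was the only Ucp1 site of the 3 shared by all libraries whose D8 over D0 ratio was below 1, at 0.931 in WT (0.443 to 1.91) and 0.560 in HY (0.228 to 1.26), although the WT ratio was 1.01 when pileups were scaled by shared promoter sites. HY D8 was the lowest library, but its ratio to WT D8 was 0.645 (0.249 to 1.57), an interval that includes 1.

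Downstream, the +42.3 kb site (chr8:85855861-85856794) covers the start of Elmod2, which encodes a GTPase-activating protein, and its strongest summit lay 186 bp upstream of that start. The pileup was 31 at D0 and 49 at D8 in WT and 44 and 44 in HY, or 47.1, 92.3, 62.2 and 89.0 times the background rate. Both D8 libraries were above both D0 libraries on the depth-scaled level, with D8 over D0 ratios of 1.96 in WT (1.23 to 3.18) and 1.43 in HY (0.921 to 2.23). By the deposited fold the ratios were 1.10 and 0.739, beside a local background that also went from 2.91 to 5.93 times the rate in WT and from 3.05 to 6.64 in HY. The neighbouring +42.8 kb site (chr8:85857001-85857320), 703 bp upstream of Elmod2, had no peak at D0. At D8 its pileup was 24 in WT and 31 in HY, 45.2 and 62.7 times the rate, with an HY over WT ratio of 1.39 (0.788 to 2.47). These sites at the Elmod2 start cannot be assigned to Ucp1 by distance.

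The sites nearest Ucp1 were seen at D8 alone. At -4.9 kb (chr8:85809241-85809772, intergenic) WT D8 had a pair of peaks, with pileups of 7 and 10, bridged by 1 HY D8 peak with a pileup of 11. The strongest summits stood at 18.8 (WT D8) and 22.3 (HY D8) times the rate, and their ratio was 1.18 (0.456 to 3.10). These were modest peaks: the stronger WT peak was above 24.0% of its list by -log10 q and the HY peak above 48.2%. The ChIP-qPCR amplicon was covered over all of its 104 bp by a WT D8 peak, over 32 bp by the HY D8 peak, and by no D0 peak.

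At +19.7 kb (chr8:85833793-85834138, intergenic), beyond the 3' end of Ucp1, the D8 pileup was 13 in WT and 12 in HY, with no D0 peak. The levels of 24.5 and 24.3 times the rate gave an HY over WT ratio of 0.992 (0.414 to 2.36). The site was thus opened in both genotypes, at levels that differed by less than counting error.

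The -2.5 kb site (chr8:85811667-85811832, 166 bp, intergenic) was the Ucp1 site that differed in presence between genotypes. Its pileup in WT D8 was 14 over a local background of 1.09, 26.4 times the genome-wide rate, with a deposited fold of 7.18 and a -log10 q of 9.07. WT D0, HY D0 and HY D8 had no peak there. By -log10 q it was above 52.9% of the WT D8 list, and so was near the middle of that list. Among HY D8 peaks over a background within 10% of 1.09 (n = 4151), the lowest pileup was 6, so a summit with fewer tags than that may have gone uncalled in HY D8. Of 1044 distal WT D8 sites with the same pileup of 14, 91.1% also had an HY D8 peak and 65.9% a WT D0 peak. It is 1 site in 1 pair of libraries, and whether another HY culture would lack it was not tested.

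**Figure D2:**
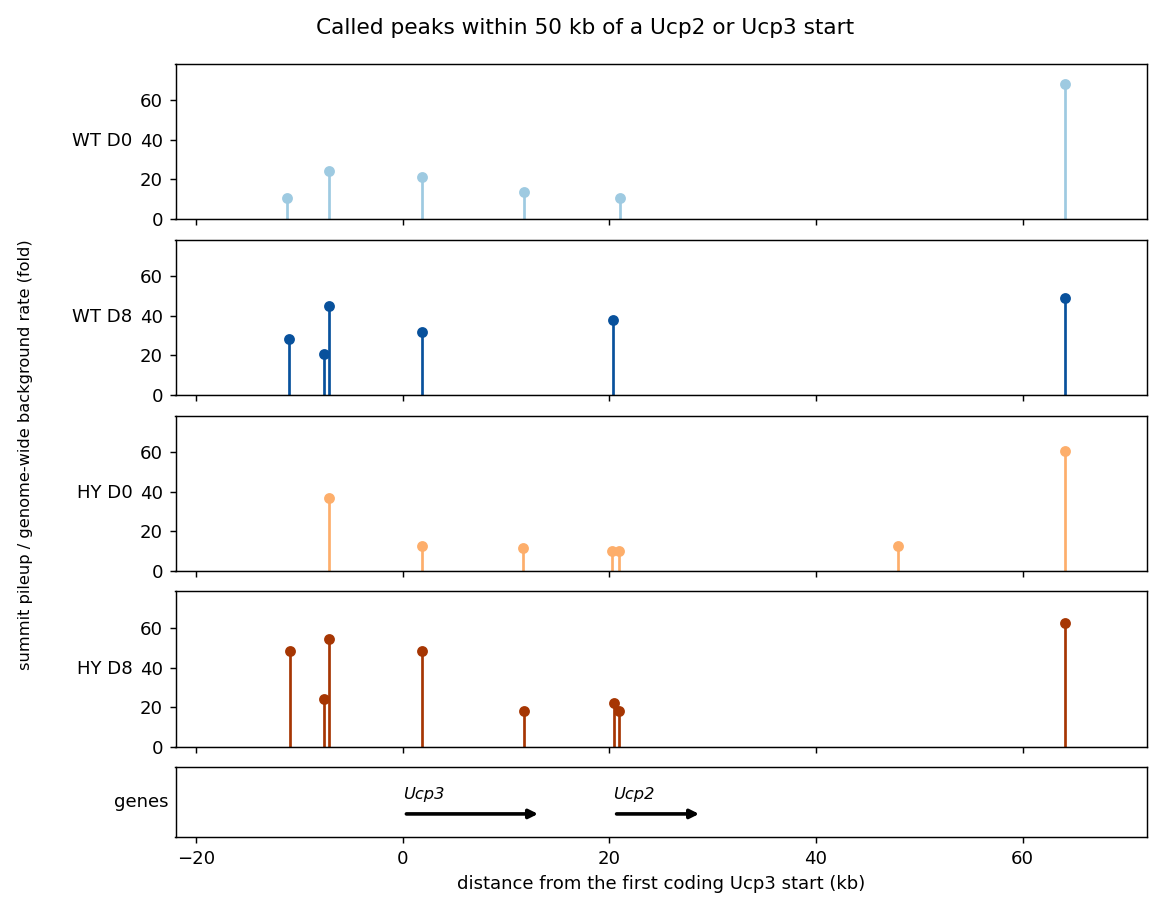
Called peaks around Ucp3 and Ucp2, drawn as for Ucp1, against the distance of the summit from the first coding Ucp3 start in kb. Most positions hold a peak at both days, and the tallest peak in each panel, at the Chchd8 start, is the one farthest to the right.

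Around Ucp3, the largest day ratio in WT was at the -11.0 kb site (chr7:107610122-107610693), which lies in an intron of C2cd3, a gene for a centriole protein. WT had a pileup of 7 at D0 and 15 at D8, HY one of 24 at D8, with no HY D0 peak, or 10.6, 28.3 and 48.6 times the rate. The WT D8 over D0 ratio was 2.66 (1.02 to 7.71), and the HY over WT ratio at D8 was 1.72 (0.865 to 3.52). By the deposited fold the WT D8 over D0 ratio was 1.48, beside a local background that went from 2.11 to 4.16 times the rate. The WT D0 peak was weak, above 0.541% of its list by -log10 q, so its presence rests on a borderline call. The summits at this site spanned 274 bp, with the WT D0 summit apart from both D8 summits, so the WT ratio compares different positions within the site. By this joining the site counted as opened in HY and not in WT, and when peaks were joined by summits within 250 bp it counted as opened in both genotypes.

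Next to it, also in C2cd3, the -7.6 kb site (chr7:107613866-107613977) had D8 peaks alone, with a pileup of 11 in WT and 12 in HY and an HY over WT ratio of 1.17 (0.473 to 2.93). The -7.1 kb site (chr7:107614112-107614611) was open in all libraries, with pileups of 16 at D0 and 24 at D8 in WT and 26 and 27 in HY. Its level at D8 was higher than at D0 in both genotypes, at 24.3 and 45.2 times the rate in WT and 36.7 and 54.6 in HY, but both intervals of the ratio included 1 (WT 1.86, 0.949 to 3.75; HY 1.49, 0.835 to 2.65). When pileups were scaled by shared promoter sites, the WT ratio was 2.02 and its interval left out 1 (1.03 to 4.07). As at the Ucp1 -11.7 and +42.3 kb sites, the local background was higher at D8 than at D0, going from 1.91 to 4.20 times the rate in WT and from 2.30 to 4.80 in HY, and the ratio of deposited folds was 1.03 in WT and 0.810 in HY.

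Within Ucp3, an intronic site at +1.9 kb (chr7:107623272-107623608) was open in all 4 libraries. The pileup was 14 at D0 and 17 at D8 in WT and 9 and 24 in HY, or 21.2, 32.0, 12.7 and 48.6 times the rate. HY D0 was the lowest and HY D8 the highest library, and the HY D8 over D0 ratio of 3.82 (1.71 to 9.34) was the largest of all. In WT the ratio was 1.51 (0.699 to 3.30). The intervals in WT and HY overlap. The HY over WT ratios of 0.599 at D0 (0.229 to 1.48) and 1.52 at D8 (0.781 to 3.01) both have intervals that include 1. The deposited fold gave 1.93 in HY and 0.860 in WT.
Ucp3 +1.9 kb: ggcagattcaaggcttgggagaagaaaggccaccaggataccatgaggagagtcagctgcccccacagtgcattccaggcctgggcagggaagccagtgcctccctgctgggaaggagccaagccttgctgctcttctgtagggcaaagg
These 150 bases, chr7:107623285-107623434 on the plus strand, are shown for the site with the largest D8 over D0 ratio, and they hold no capital because no motif searched here matched.

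The remaining site inside Ucp3, named -8.6 kb after the nearer Ucp2 start (chr7:107633108-107633299), was weak throughout. Its pileup was 9 in WT D0, 8 in HY D0 and 9 in HY D8, or 13.7, 11.3 and 18.2 times the rate, and WT D8 had no peak. WT D8 peaks over a background within 10% of that of the HY D8 peak (n = 4133) reached down to a pileup of 5, and 56.4% of distal HY D8 sites with a pileup of 9 had a WT D8 peak.

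At the start of Ucp2 lay a pair of sites in untranslated exons. The promoter site itself (+0.0 kb, chr7:107641387-107642008) had its highest pileup, 20, in WT D8, with 7 and 11 in HY at D0 and D8 and no WT D0 peak, or 37.7, 9.89 and 22.3 times the rate. WT D8 was the highest library there, but the HY over WT ratio at D8 of 0.591 (0.256 to 1.29) and the HY D8 over D0 ratio of 2.25 (0.797 to 6.85) had intervals that include 1. The second site, at +0.6 kb (chr7:107642381-107642627), had pileups of 7 in WT D0, 7 in HY D0 and 9 in HY D8, with no WT D8 peak. Thus WT cells had a called peak at +0.6 kb at D0 and at the promoter at D8, whereas HY cells had both at both days. Every D0 pileup at this pair was 7, close to the lowest that was called (5 at the background rate in both D0 lists), so the position of the D0 peaks is known less well than that of the WT D8 peak.

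Beyond Ucp2, the +27.6 kb site (chr7:107669104-107669473, intergenic, nearest the start of Dnajb13) was an HY D0 peak alone, with a pileup of 9. Of distal HY D0 sites with that pileup, 51.0% had a WT D0 peak and 14.9% an HY D8 peak. The +43.7 kb site (chr7:107685363-107685909) lay 20 bp from the start of Chchd8, which encodes a mitochondrial cytochrome c oxidase assembly protein. Its pileup was 45 at D0 and 26 at D8 in WT and 43 and 31 in HY, or 68.3, 49.0, 60.8 and 62.7 times the rate. It was the strongest site of the locus in every library and gave D8 over D0 ratios of 0.717 in WT (0.425 to 1.19) and 1.03 in HY (0.629 to 1.68).

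**Figure D3:**
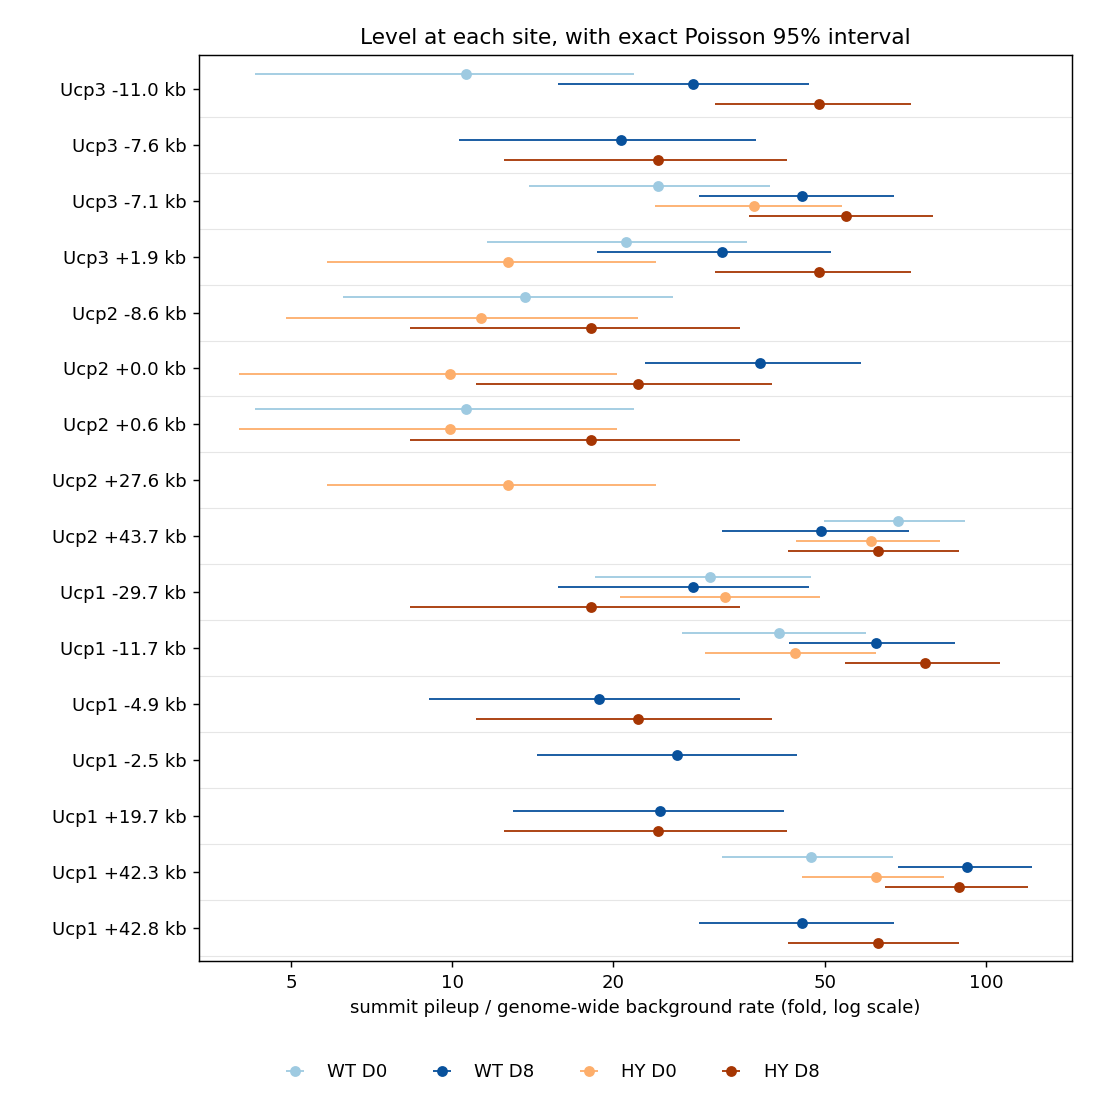
Level of each of the 16 sites in each library, as summit pileup divided by the genome-wide background rate on a log axis, with exact Poisson 95% intervals of the pileup; a library without a point had no peak there. Points of WT and HY at the same day overlap in their intervals at every site with both, while the Ucp1 sites at -4.9, +19.7 and +42.8 kb have D8 points alone.

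To compare days, a site was called opened when it had a D8 peak and no D0 peak in the same genotype, and closed in the reverse case. In WT, 6 of 13 sites with a D8 peak were opened, against 25.7% of all 36898 such sites and 35.6% of those outside promoters. In HY, 5 of 14 were opened, against 27.1% of all and 35.5% outside promoters. Ucp1 held 4 of the 6 in WT and 3 of the 5 in HY, and the locus of Ucp2 and Ucp3 held 2 in each. With lists of equal length the locus of Ucp2 and Ucp3 held 3 in WT and 5 in HY against 4 and 3 at Ucp1, so the order of the loci turned round in HY. Counted per gene over 22238 protein-coding genes, as many opened sites as at Ucp1 were found at 4.70% of genes in WT, 11.5% in HY and 4.74% for the 3 sites opened in both, whereas the median gene had 0. The Ucp1 counts in WT, HY and both include the +42.8 kb site, 703 bp from the Elmod2 start, which cannot be assigned to Ucp1 by distance. Ucp2 and Ucp3 each had 2 in WT, a count reached by 18.7% of genes, and 2 in HY, reached by 22.8%.

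In the genome more sites closed than opened, 41158 against 9481 in WT and 43965 against 12254 in HY, while near these genes fewer closed than opened. Closed sites were 2 of 9 in WT, against 60.0% of all sites with a D0 peak, and 1 of 10 in HY, against 57.1%. Outside promoters the genome share was 70.9% and 66.4%. None of the 3 Ucp1 sites with a D0 peak closed in either genotype. The WT sites that closed were -8.6 kb and +0.6 kb of Ucp2, and the HY site was +27.6 kb. With so few sites these shares are given as description.

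Between genotypes, presence differed at few sites. At D0, 1 of 11 sites had a WT peak alone, against 12.1% of the genome, and 2 of 11 an HY peak alone, against 21.7%. At D8, 1 of 15 had a WT peak alone, against 9.53%, and 2 of 15 an HY peak alone, against 26.3%. The WT site at D8 was Ucp1 -2.5 kb, and the HY sites were -8.6 kb and +0.6 kb of Ucp2. These counts lie near or below the background share and do not set the uncoupling protein genes apart.

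Where both libraries had a peak, 36 ratios could be formed. D8 over D0 was above 1 at 5 of 7 sites in WT, with a median of 1.52, and at 8 of 9 in HY, with a median of 1.61. The genome medians were 0.896 over 27417 WT sites and 0.884 over 33033 HY sites (0.793 and 0.764 outside promoters). Intervals left out 1 for 4 of the 36 ratios, with no allowance for their number: WT at Ucp3 -11.0 kb and Ucp1 +42.3 kb, and HY at Ucp3 +1.9 kb and Ucp1 -11.7 kb. All 4 were increases with day, 2 of 7 ratios in WT and 2 of 9 in HY, and over all sites with both peaks 4.76% of WT and 5.14% of HY intervals lay wholly above 1 and 14.2% and 15.3% wholly below. By the deposited fold over local background, fewer D8 over D0 ratios were above 1, at 3 of 7 in WT and 5 of 9 in HY. The genome share of fold ratios above 1 was not computed, so these counts have no background beside them. No HY over WT interval left out 1, against 1.61% above and 0.821% below at D0 and 0.906% above and 0.121% below at D8 in the genome. At D0 4 of 8 such ratios were above 1 and at D8 8 of 12, with medians of 1.00 and 1.19 against 1.06 and 1.11 in the genome.

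**Figure D4:**
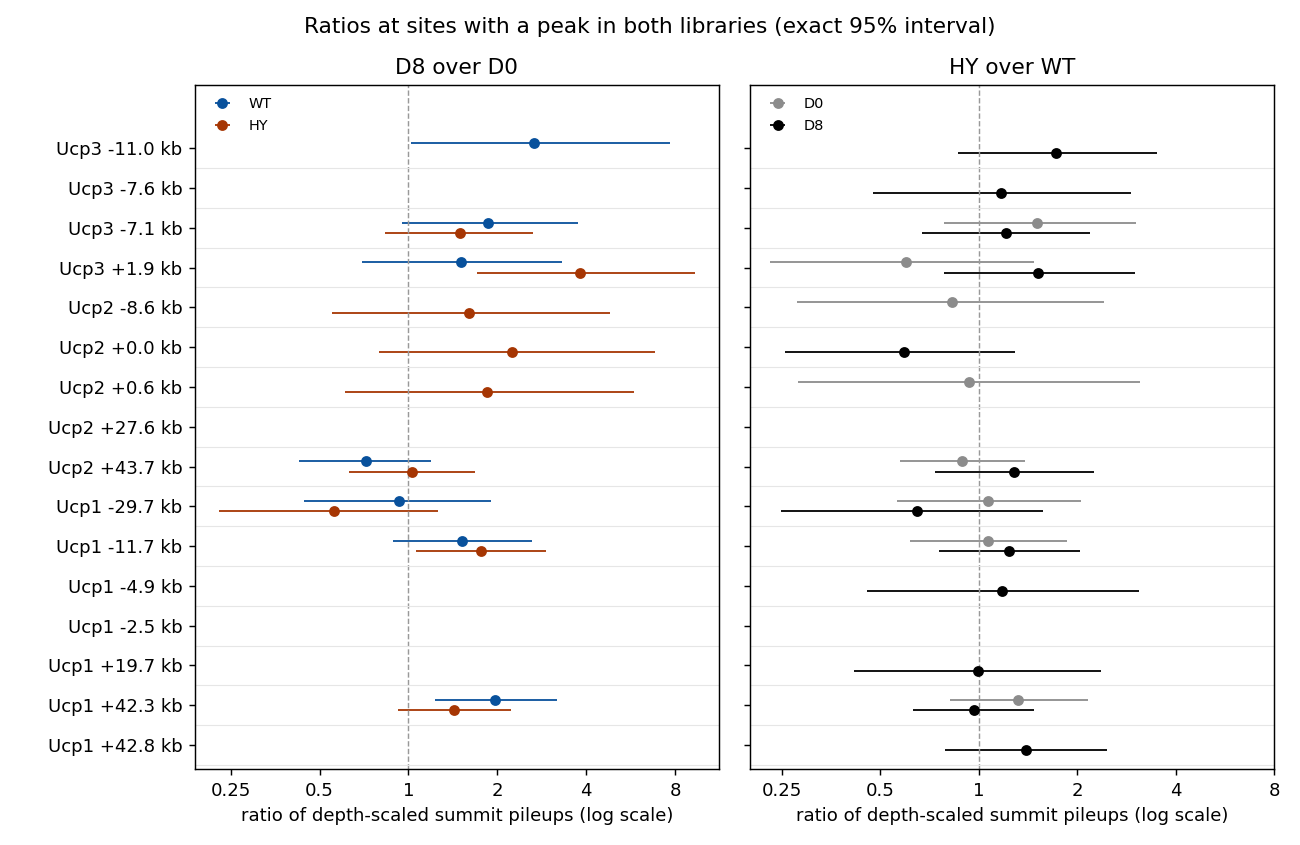
Depth-scaled ratios of summit pileups on a log axis with exact 95% intervals, D8 over D0 on the left by genotype and HY over WT on the right by day; sites without a peak in both libraries have no point. On the left, 5 of 7 WT and 8 of 9 HY points lie above 1 and 4 intervals clear it, while on the right every interval includes 1.

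Sequence motifs were sought on both strands in the 200 bp around each summit, and in each case the share of all 100607 sites is the background. The nuclear receptor repeats DR1 (AGGTCANAGGTCA) and DR4 (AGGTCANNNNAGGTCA), each with up to 2 mismatches, matched 0 of 16 sites, against 3.10% and 2.63%. The C/EBP palindrome TTGCGCAA with up to 1 mismatch matched 1 site, against 5.11%, at Ucp1 +19.7 kb (TTGAGCAA, 92 bp before the summit). AP-1 (TGANTCA) matched 2 sites, against 21.9%, at Ucp1 +19.7 kb (TGAGTCA) and Ucp2 +0.6 kb. The cyclic AMP response element TGACGTCA with up to 1 mismatch matched Ucp2 +27.6 kb alone, against 7.60%, NFI (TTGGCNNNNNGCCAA, up to 1 mismatch) matched Ucp2 +0.6 kb alone, against 1.28%, and EBF (TCCCNNGGGA) matched 0, against 1.36%. DR1 and DR4 contain the GGTCA core, so these counts overlap with the next. In 400 bp windows DR4 matched 2 sites and the cyclic AMP response element 2, against 4.86% and 12.4%, and the other 5 motifs matched as many sites as in 200 bp. Over whole sites, which differ in length, DR1 matched 1 site (5.43% of all sites), DR4 2 (4.62%), C/EBP 2 (8.17%), the cyclic AMP response element 1 (11.9%), NFI 2 (1.94%), EBF 1 (2.19%) and AP-1 3 (26.8%). A match describes letters and not a bound factor.

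The whole motifs were absent from the Ucp1 -2.5 kb site, and its cores were counted after the sequence had been seen. Its window held 2 GGTCA, as many as 6.65% of sites, and 2 CGTCA, as many as 1.60%, and 0.0775% of sites held as many of both. Because the cores and the counts compared were taken from this site, these shares describe it and do not measure how unusual it is. The GGTCA cores lie at bases 24 to 28 and, on the minus strand, 37 to 41 of the printed site, and the CGTCA cores at 14 to 18 and 55 to 59. No other of the 16 sites had 2 of either core. In the promoter windows, Ucp1 had a C/EBP match (TTGCGCAC), as did 6.41% of promoters, and Ucp3 had a DR1 match (AGGTTTCAGGTCA, 3.27%) and a DR4 match (2.70%), while Ucp2 had none of the 7 motifs.

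Other carriers of the inner membrane and other genes of thermogenesis were counted in the same way. Of 6 relatives (Slc25a27 and Slc25a14, also called UCP4 and UCP5, Slc25a30, and the ADP/ATP carriers Slc25a4, Slc25a5 and Slc25a31), 5 had a promoter peak in each library, the exception being Slc25a31. An opened site within 50 kb was found at 5 of them in WT, 3 in HY and 2 in both. Of 12 thermogenic genes, 8 (WT) and 10 (HY) had a D0 promoter peak, 8 and 9 a D8 one, against 58.5% and 59.5% of all genes at D0 and 53.4% and 54.8% at D8. Within 50 kb, 10 had an opened site in WT, 10 in HY and 8 in both. Over all protein-coding genes the shares with an opened site were 38.5%, 43.8% and 27.9%. Like Ucp1, Dio2, which encodes the deiodinase that activates thyroid hormone, and Cox8b, a cytochrome c oxidase subunit, had no promoter peak in any library, but Dio2 had 0 opened sites and Cox8b 1, in HY. Ppara, a receptor for fatty acids, had 9 opened sites in WT and 7 in HY, more than Ucp1.

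The identity of the cells was checked by promoter peaks of marker genes. Over all protein-coding genes, 58.5% (WT) and 59.5% (HY) had a promoter peak at D0, and 53.4% and 54.8% at D8. Marker counts near these shares do not identify the cells. Adipocyte markers had a promoter peak at 4 of 8 genes in both D0 libraries and at 8 of 8 in both D8 libraries, including Adipoq, Fabp4, Plin1 and Cidec. Preadipocyte markers were at 6 of 6 at D0 and 3 at D8 in WT and 5 and 3 in HY. Leukocyte markers were at 0 of 5 in every library, endothelial markers at 3 of 4 at D0 and 0 at D8 in WT and 2 and 1 in HY, and muscle markers at 0 of 4 except Acta1 in WT D8. The defining muscle genes Myod1 and Myf5 had none in any library. With 8 of 8 in both D8 libraries, the adipocyte count cannot show whether WT and HY differed in their extent of differentiation.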

How the data were processed

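The members and gene lists were chosen with earlier results of these data known. The authors trimmed, aligned to mm9, removed duplicates and called peaks per library; Bowtie2, SAMtools, Picard and deepTools are named per the labels, and the study names Trimmomatic and MACS3 for its ChIP-seq with the same procedure. Versions, threshold and Tn5 shift are not given in the sources used here. The deposited fold is the ratio of summit pileup to local background, with a constant (pseudocount) added to both. It is not normalised between libraries. The deposited -log10 p and -log10 q are per summit. The deposited score rescales -log10 q and was not used.

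Pileup and local background were solved from fold and -log10 p, within 0.002 for 100% of peaks (tested on simulated data). The fold was taken as pileup plus 1 over background plus 1. The lowest background of a list is its genome-wide rate and stood for relative depth, since total read depth is unknown. The rates, from 0.494 to 0.708, were taken as fixed, so the precision of a ratio rests on its pileups. Ratios divided pileups by these rates, with exact 95% intervals (Clopper-Pearson on the share). Genes, starts and sequence came from the NCBIM37 (mm9) reference and its GENCODE annotation, and coordinates are 1-based. Adgre1 was found under Emr1. Groups came from the sample labels.

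With 1 library per group no test was run. Named in full were sites with peaks in at least 2 libraries or a pileup of at least 10 (the remaining site, Ucp2 +27.6 kb, is named although outside this rule), genes starting within 1000 bp of a site, the ChIP-qPCR region and the fixed lists. Of these genes, only those a result turns on are printed. Alternatives changed the reach (10 and 100 kb), the q minimum (5), list length, joining (summits within 250 bp, cover of 50%), starts, scaling and motif windows (400 bp, whole peak). Python 3.11.15, NumPy 2.4.6, SciPy 1.17.1, pandas 2.3.3, pysam 0.24.0, samtools 1.23.1 and matplotlib 3.10.9 were used.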

Additional observations from a re-analysis of the deposited data

Results flagged for a closer look

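At the Ucp2 +43.7 kb site, at the Chchd8 start, the depth-scaled D8 over D0 ratio lay below 1 in WT, at 0.717, and close to 1 in HY, at 1.03. It was singled out because the 2 values lie on different sides of 1, which does not show movement in opposite directions: both intervals include 1, the pileup was lower at D8 in both genotypes, and by the deposited fold both ratios were below 1 (0.700 and 0.962). With 1 library per group the difference was not tested.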

How the results depend on the processing

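The Ucp1 -2.5 kb site stayed the 1 WT D8 site without an HY D8 peak at Ucp1 when summits within 250 bp were joined, when -log10 q of at least 5 was required and when lists had equal length. A reach of 10 kb left 0 Ucp1 peaks at D0 and 3 at D8 in WT and 0 and 1 in HY, with 2 opened Ucp1 sites in WT and 1 in HY, and 1 opened HY site at Ucp2 and Ucp3. A reach of 100 kb gave 5 Ucp1 peaks in HY D0 and 5 opened Ucp1 sites in each genotype. Requiring a -log10 q of at least 5 made -4.9 kb an HY D8 site alone, so that Ucp1 had 1 such site, and left 4 HY D0 peaks at Ucp2 and Ucp3, with 1 HY site alone at D0 and 1 at D8. This minimum left 6 Ucp1 peaks in WT D8 and 6 in HY D8. Lists of equal length left 3 WT D0 and 2 HY D0 peaks at Ucp2 and Ucp3, with 5 opened sites in HY, 0 HY sites alone at D0 and 1 WT site alone at D8. Those D0 peaks were the weaker ones of longer lists, so calls of opening there depend on list length. Scaling by 11811 shared promoter sites kept all 36 ratios within their intervals, moved 3 to the other side of 1 and left 5 intervals without 1, the added one at Ucp3 -7.1 kb in WT (2.02). The ratio of deposited folds kept 33 and moved 3, Ucp3 -7.1 kb in HY (0.810) and Ucp1 +42.3 kb in WT (1.10) and HY (0.739), and 6 of 36 changed side of 1. Motif counts also moved with the window: from 0 to 2 sites for DR4 (400 bp and whole site), and over whole sites from 0 to 1 for DR1 and EBF and from 1 to 2 for C/EBP and NFI, with the cyclic AMP response element at 2 in 400 bp. No paired analysis was possible because each group was 1 library and the labels carry no replicate numbers, and no result comes from a test. Low pileups, between 7 and 49 at the strongest summits of sites, limit each ratio.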
